A study of Mus musculus with 18 samples.

Results

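The genes described here are 4 Zic transcription factors (Zic1, Zic2, Zic4 and Zic5), the synaptic scaffold gene Homer2, the LIM homeobox gene Lhx2 and the diacylglycerol kinase gene Dgkg, 7 genes linked with the identity of lateral septal (LS) neurons. They were chosen by gene symbol. Of the 35557 probesets on the array, 9 name one of these genes and no other, and they cover 6 of the 7 genes; Dgkg was not analysed here. A gene with more than 1 such probeset is represented by the one with the highest mean over the 18 arrays.

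Total RNA came from the microdissected LS of outbred hsd:ICR female mice of about 70 days of age, and each mouse had its own array of the Affymetrix Mouse Gene 1.0 ST design, with 6 mice in each of 3 groups. Virgin females had been housed with other females and had no mating or litter. Maternal females had been housed with a breeder male, were lactating with a litter standardized to 11 pups, and were dissected on postpartum Day 7. Pups removed females had the same mating and litter, lost the pups on postpartum Day 2 and were dissected on the same day as the maternal group. No group carried a transgene or received a drug. The question put to these genes is whether their RNA differs between virgin females, females caring for pups and females that gave birth without continued contact with pups, and whether the genes vary together from mouse to mouse. The tissue is a bulk dissection, so fewer cells of a type and less RNA per cell cannot be told apart.

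Zic proteins are zinc finger transcription factors related to the Gli family, the transcriptional effectors of hedgehog signaling. In the embryo Zic1 and its relatives act in the dorsal neural tube and the forebrain midline, and their expression persists in septal neurons of the adult. The genes lie in pairs, with Zic1 beside Zic4 and Zic2 beside Zic5, the members of a pair facing away from each other. Lhx2 is a LIM homeodomain factor that selects cortical against midline fates in the early telencephalon. Homer2 encodes a postsynaptic scaffold protein that links group I metabotropic glutamate receptors with intracellular calcium release and with Shank proteins. Dgkg encodes a kinase that removes diacylglycerol, the lipid activator of protein kinase C.

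The sequences before the start sites of Zic1, Zic4, Zic5 and Homer2 are shown because Zic5 and Homer2 each passed a test of covariation with Zic1 over the arrays and because Zic4 and Homer2 had the largest maternal against virgin differences among the measured genes. They are RefSeq sequences on mouse build GRCm38.p6. Each line gives the 250 bases before the start site, 5′ to 3′ on the gene's strand, at chr9:91365769-91366018 (minus strand) for Zic1, chr9:91368722-91368971 (plus strand) for Zic4, chr14:122465659-122465908 (minus strand) for Zic5 and chr7:81706926-81707175 (minus strand) for Homer2. Capitals mark matches to the motifs described after them.
Zic1: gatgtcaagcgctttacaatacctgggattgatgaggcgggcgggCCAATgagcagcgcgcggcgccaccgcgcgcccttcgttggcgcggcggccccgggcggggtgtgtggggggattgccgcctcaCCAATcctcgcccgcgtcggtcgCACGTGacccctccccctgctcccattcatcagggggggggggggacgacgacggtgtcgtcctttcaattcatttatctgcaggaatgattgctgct
Zic4: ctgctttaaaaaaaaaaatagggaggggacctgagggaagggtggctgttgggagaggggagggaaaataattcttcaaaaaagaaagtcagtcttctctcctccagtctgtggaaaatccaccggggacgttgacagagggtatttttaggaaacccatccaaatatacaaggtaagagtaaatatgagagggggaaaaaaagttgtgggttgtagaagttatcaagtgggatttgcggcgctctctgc
Zic5: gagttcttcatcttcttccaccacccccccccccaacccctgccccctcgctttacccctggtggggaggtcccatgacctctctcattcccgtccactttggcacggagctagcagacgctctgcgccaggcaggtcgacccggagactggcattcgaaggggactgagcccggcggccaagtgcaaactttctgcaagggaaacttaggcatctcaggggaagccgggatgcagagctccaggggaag
Homer2: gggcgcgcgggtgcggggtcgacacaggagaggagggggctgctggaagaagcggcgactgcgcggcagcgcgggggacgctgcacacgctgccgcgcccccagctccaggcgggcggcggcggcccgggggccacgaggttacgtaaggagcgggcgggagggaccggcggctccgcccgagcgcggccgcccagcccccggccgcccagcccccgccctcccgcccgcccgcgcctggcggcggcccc
RefSeq windows of 300 bases, 250 before and 50 after the start site, were found for 6 of the 7 genes, 8 windows in all, and none for Zic2. Of the windows of Zic1 and Zic4, the start sites lie 3204 bases apart and point away from each other. The Zic4 gene itself begins at chr9:91365631 and overlaps the beginning of Zic1, whose start site on the minus strand is at 91365768. The only Zic4 window has its start site at 91368972, inside the gene. Its CpG and GC values do not describe the beginning of the gene. The Zic1 window holds 31 CpG dinucleotides and is 65.3% GC, while the Zic4 window holds 8 and is 46.0% GC. The Zic5 window has 15 CpG and 62.7% GC. The Homer2 window shown is the richest of them, with 49 CpG and 82.3% GC, and 0.42% of all 32851 windows had as high a GC content. Over all windows the medians were 7 CpG and 52.7% GC.

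Of 5 motifs searched on both strands, the Zic core CCTGCTG and the GLI site GGGTGGTC occurred in none of the windows of these genes, against 10.5% and 0.807% of all windows. The letters CCAAT occurred at positions -205 and -121 of Zic1, counted from the start site to the first base of the match, and in 37.4% of all windows. The E-box CACGTG occurred at position -98 of Zic1 and at position -117 of Dgkg, and in 7.15% of all windows. TATAAA was found at position -170 in a second Homer2 window, which is not shown, and in 13.6% of all windows. No matches of different motifs overlapped in these windows. A match is a string of letters and not a measured binding site.

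None of the 6 measured genes was called in any comparison. A gene was called where limma, fitted over all probesets with Benjamini-Hochberg adjustment, gave it an adjusted p below 0.25. In maternal against virgin mice 1.65% of all probesets were called, in maternal against pups removed mice 0.0309% and in pups removed against virgin mice 0.208%. Split by direction, 0.832% were higher and 0.813% lower in the first of these comparisons, 0.0225% and 0.00844% in maternal against pups removed mice and 0.188% and 0.0197% in pups removed against virgin mice. At an unadjusted p under 0.05, 2 of the 6 genes (33.3%) passed in maternal against virgin mice, beside 10.4% of all probesets. In maternal against pups removed mice 1 gene (16.7%) did, beside 8.96%. In pups removed against virgin mice 0 did, beside 8.13%. The median log2 difference over the 6 genes was 0.055 in maternal against virgin mice, with 5 above 0 and 1 below, and 0.058 in maternal against pups removed mice, with 6 above 0. It was -0.005 in pups removed against virgin mice. The medians over all probesets were 0.012, -0.003 and 0.012.

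**Figure D1:**
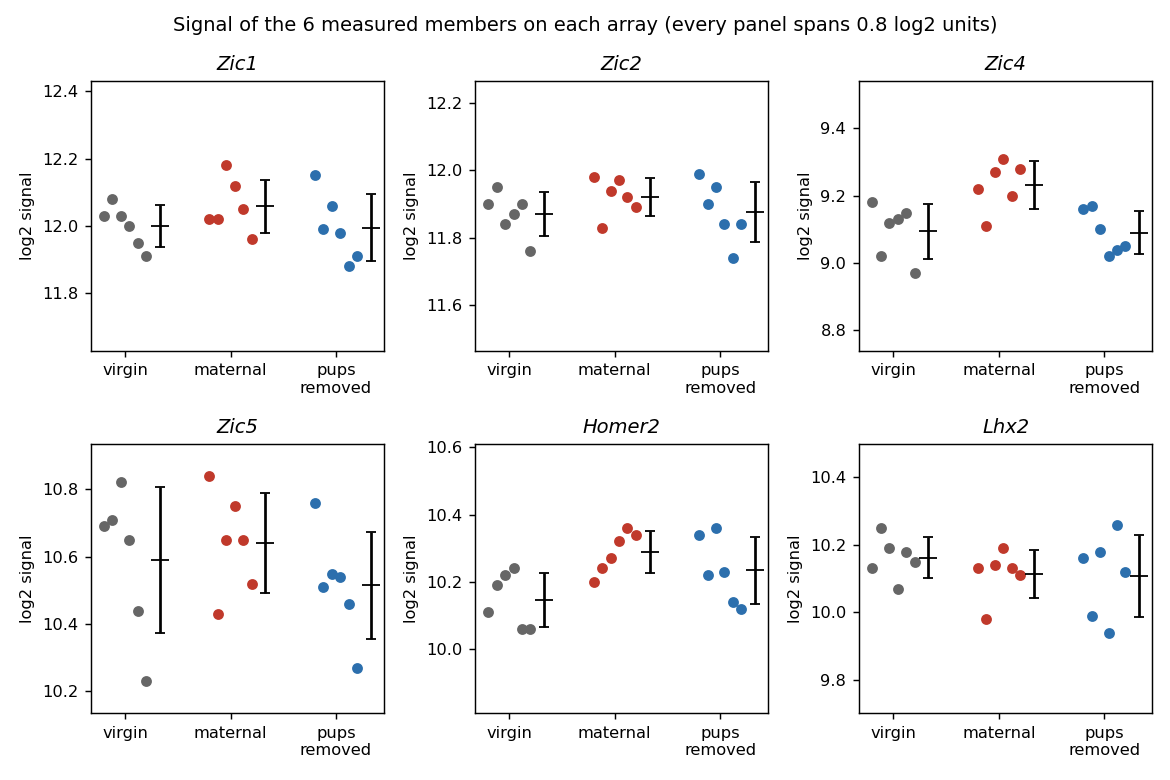
Log2 signal of Zic1, Zic2, Zic4, Zic5, Homer2 and Lhx2 on each array (points, 6 per group), with the mean and SD of each group as a bar; every panel spans 0.8 log2 units. The groups overlap in every panel, and in the Zic4 panel 5 of the 6 maternal points lie above every virgin and every pups removed point.

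Zic1 was a steady signal on every array. In virgin mice its log2 signal had a lowest value of 11.91, a median of 12.015 and a highest of 12.08, in maternal mice 11.96, 12.035 and 12.18, and in pups removed mice 11.88, 11.985 and 12.15. The 3 groups covered nearly the same range. The maternal mean of 12.058 ± 0.079 (SD, n = 6) was 0.058 above the virgin mean, where the SD was 0.061, with an SE of 0.048, a 95% interval of -0.043 to 0.16 and an adjusted p of 0.713 by limma. Against pups removed mice the difference was 0.063 with an interval of -0.038 to 0.165. Pups removed and virgin means were 0.005 apart, with an interval of -0.107 to 0.097.

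Zic2, the paralog that acts in midline and optic chiasm development, gave the same picture. Its log2 signal had a lowest value of 11.76, a median of 11.885 and a highest of 11.95 in virgin mice, against 11.83, 11.93 and 11.98 in maternal mice and 11.74, 11.87 and 11.99 in pups removed mice. The log2 difference was 0.052 (SE 0.044, adjusted p = 0.721 by limma) in maternal against virgin mice, 0.045 (adjusted p = 0.798) in maternal against pups removed mice and 0.007 (adjusted p = 0.982) in pups removed against virgin mice. No difference of Zic1 or Zic2 had an unadjusted p under 0.05.

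Zic4, the neighbour of Zic1, had the smallest unadjusted p among these genes in both maternal comparisons. Its log2 signal had a lowest value of 8.97, a median of 9.125 and a highest of 9.18 in virgin mice, 9.11, 9.245 and 9.31 in maternal mice and 9.02, 9.075 and 9.17 in pups removed mice. All 6 maternal arrays lay above the means of both other groups. Of them 5 lay above every virgin and every pups removed array, from 9.20 to 9.31, and the array that did not was maternal replicate 2, at 9.11. The maternal mean of 9.232 ± 0.072 (SD, n = 6) was 0.137 above the virgin mean of 9.095 ± 0.082, a 1.10-fold level on the linear scale. The SE was 0.044, the 95% interval 0.043 to 0.23, the unadjusted p 0.0065 and the adjusted p 0.282 by limma, which does not pass. Against the pups removed mean of 9.09 ± 0.064 the difference was 0.142, with an interval of 0.048 to 0.235, an unadjusted p of 0.00509 and an adjusted p of 0.391 by limma, which does not pass either. Both comparisons use the same 6 maternal arrays. Pups removed and virgin means were 0.005 apart, with an interval of -0.098 to 0.088. The maternal against virgin difference passed the threshold when only probesets with a mean of at least 6 were tested (adjusted p = 0.233), with a variance trend on level (adjusted p = 0.228) and without virgin replicate 1 (adjusted p = 0.229). It passed under only these 3 of 28 alternatives, over which it ran from 0.052 to 0.161.

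Zic5, the neighbour of Zic2, had the largest SD within groups of the 6 genes on its brighter probeset. Its log2 signal had a lowest value of 10.23, a median of 10.67 and a highest of 10.82 in virgin mice, 10.43, 10.65 and 10.84 in maternal mice and 10.27, 10.525 and 10.76 in pups removed mice. The lowest virgin array was replicate 6. The SD between mice was 0.216 in the virgin, 0.149 in the maternal and 0.158 in the pups removed group. The log2 difference was 0.05 (SE 0.097, adjusted p = 0.899 by limma) in maternal against virgin mice, 0.125 (adjusted p = 0.734) in maternal against pups removed mice and -0.075 (adjusted p = 0.894) in pups removed against virgin mice.

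Zic5 has a second probeset. Probesets of this array are mostly numbered along the chromosomes, and none of the 10 nearest neighbours by number of the brighter Zic5 probeset names a gene on the chromosome of Zic5; all 10 name genes on chromosome 11. The values of the brighter probeset, and the correlations and most alike genes given for it, may therefore belong to another locus. For the other Zic5 probeset 9 of the 10 do. On that other probeset the 18 values lay between 8.99 and 9.24, with SDs of 0.075 in the virgin, 0.06 in the maternal and 0.078 in the pups removed group, and the differences were 0.057 (adjusted p = 0.684 by limma) in maternal against virgin mice and 0.067 (adjusted p = 0.682) in maternal against pups removed mice. After group means were removed, the 2 Zic5 probesets had a Pearson r of 0.668 over the 18 arrays. Zic4 also has a dim second probeset, with a mean of 6.526. None of its 10 neighbours names a gene on the chromosome of Zic4, and its r with the brighter Zic4 probeset was -0.204. On it the maternal against virgin difference was 0.052 and the maternal against pups removed difference 0.015.

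Lhx2 was the only one of the 6 genes with a maternal mean below the virgin mean, by less than the spread between mice. Its log2 signal had a lowest value of 10.07, a median of 10.165 and a highest of 10.25 in virgin mice, 9.98, 10.13 and 10.19 in maternal mice and 9.94, 10.14 and 10.26 in pups removed mice. Pups removed mice held both the lowest and the highest array of the 18. The log2 difference was -0.048 in maternal against virgin mice, with an SE of 0.052, an interval of -0.157 to 0.06 and an adjusted p of 0.794 by limma. It was 0.005 (adjusted p = 0.986) in maternal against pups removed mice and -0.053 (adjusted p = 0.848) in pups removed against virgin mice.

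Homer2 had the largest maternal against virgin difference of the 6 genes. In virgin mice its log2 signal had a lowest value of 10.06, a median of 10.15 and a highest of 10.24, in maternal mice 10.20, 10.295 and 10.36, and in pups removed mice 10.12, 10.225 and 10.36. All 6 maternal arrays were above the virgin mean and 4 were above every virgin array, while the pups removed arrays spread over both ranges. The maternal mean of 10.288 ± 0.062 (SD, n = 6) was 0.142 above the virgin mean of 10.147 ± 0.08, a 1.10-fold level. The SE was 0.049, the 95% interval 0.039 to 0.244, the unadjusted p 0.00939 and the adjusted p 0.305 by limma, which does not pass. The pups removed mean of 10.235 ± 0.099 was 0.088 above the virgin mean (interval -0.014 to 0.191, adjusted p = 0.69) and 0.053 below the maternal mean (interval -0.049 to 0.156, adjusted p = 0.784). The maternal against virgin difference passed the threshold after quantile normalization between arrays (0.154, adjusted p = 0.214) and without maternal replicate 1 (0.159, adjusted p = 0.244). It passed under only these 2 of 28 alternatives, over which it ran from 0.028 to 0.16. A second Homer2 probeset, with values from 9.43 to 9.81, gave a smaller difference of 0.028 (SE 0.058, adjusted p = 0.904 by limma). The 2 Homer2 probesets had an r of 0.64 over the arrays.

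**Figure D2:**
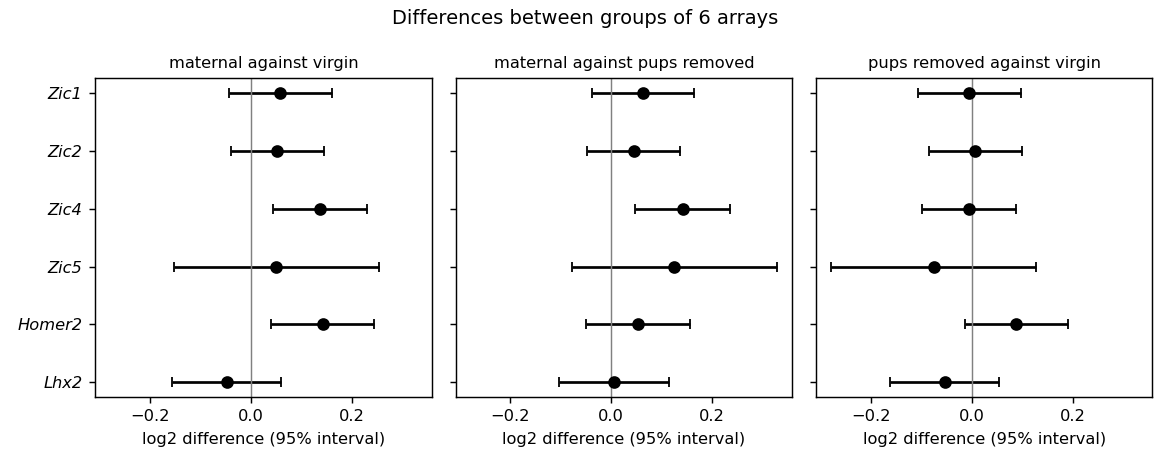
Log2 difference between groups of 6 arrays for each of the 6 genes (points), with the 95% interval of the limma fit as a bar, for the 3 comparisons. The intervals of Zic4 in both maternal comparisons and of Homer2 in maternal against virgin mice lie to the right of 0, and all others cross it.

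The relatives and partners of these genes were counted in the same fit. Of the other Gli family genes analysed here, 6 in all, none was called in any comparison. In maternal against virgin mice 2 were above 0 and 4 below, with a median of -0.008. The smallest p-values belonged to Gli3, which in its processed form represses hedgehog targets, at -0.112 (adjusted p = 0.402 by limma), and Glis3 at -0.188 (adjusted p = 0.419). Of genes of the Homer scaffold and its partners 8 of 10 were measured, 4 on each side of 0 with a median of -0.002 and none called. The scaffold genes Shank1 and Shank3 had the smallest p-values, with differences of 0.052 (adjusted p = 0.836) and -0.068 (adjusted p = 0.572).

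Among LIM homeobox genes and their cofactors 18 of 19 were measured, 7 above 0 and 11 below in maternal against virgin mice, with a median of -0.016. One was called: Lmo3, a LIM-only protein that competes for LIM domain cofactors, was lower in maternal mice by 0.308 (SE 0.071, adjusted p = 0.139 by limma), with group means of 10.385 in maternal, 10.693 in virgin and 10.628 in pups removed mice. Ldb2, a cofactor of LIM homeodomain proteins, differed by -0.092 (adjusted p = 0.293). Of the other diacylglycerol kinases 8 of 9 were measured, 3 above 0 and 5 below. Dgka was called higher in maternal mice, by 0.255 (SE 0.077, adjusted p = 0.244 by limma), from a virgin mean of 8.72 to a maternal mean of 8.975, while Dgkz differed by -0.08 (adjusted p = 0.504). The Lmo3 call was lost with the striatal marker mean as a covariate (-0.112, adjusted p = 0.895), without virgin replicate 2 (adjusted p = 0.275) and without maternal replicate 5 (adjusted p = 0.251). Dgka lay just inside the threshold and was called under 12 of 27 alternatives, with differences from 0.164 to 0.291. Without single arrays its adjusted p reached 0.456, on leaving out virgin replicate 2, and with the striatal covariate it was 0.918. No gene of these families was called in maternal against pups removed or pups removed against virgin mice.

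No other gene of LS neurons was called in the limma fit used here. All 13 on the list were measured, with 2 above 0 and 11 below in maternal against virgin mice, a median of -0.02 and none called. Meis2, a homeodomain factor of GABAergic neurons, differed by -0.177 (SE 0.056, adjusted p = 0.269 by limma) and Trpc4, a cation channel abundant in the LS, by 0.168 (SE 0.065, adjusted p = 0.368). They were called under 8 and 1 of 27 alternatives. The Meis2 differences ran from -0.198 to -0.065 over these. The study itself lists Meis2, lower in maternal mice, among its most significant genes, and reports Trpc4 as higher. In pups removed against virgin mice all 13 lay below 0, with a median of -0.048 and none called. Genes of septal and ventral forebrain development, of which 11 of 13 were measured, had 2 above 0 and 9 below in maternal against virgin mice, with a median of -0.053 and none called. Among them Dlx1 and Dlx2, homeobox genes of GABAergic lineages, differed by -0.117 (adjusted p = 0.481) and -0.1 (adjusted p = 0.54).

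Markers of the LS and of the region beside it were read on the same arrays. The mean of the 13 other LS genes lay between 10.283 and 10.458 on all arrays. That list holds Gad1, Gad2 and Slc32a1, which GABAergic neurons outside the LS also express, so its narrow range cannot check the dissection. Markers of striatal medium spiny neurons, the cells of the region beside the septum, ranged from 9.853 to 10.103 in the virgin group, 9.176 to 9.752 in the maternal group and 9.39 to 10.23 in the pups removed group. All 18 measured of 20 striatal markers were below 0 in maternal against virgin mice, with a median of -0.417, and 5 were called lower (Bcl11b, Pde1b, Rxrg, Rarb and Adcy5). These calls stood under 23, 17, 19, 18 and 17 of 27 alternatives. With the striatal mean as a covariate in the fit, the maternal against virgin difference was 0.134 (SE 0.058, unadjusted p = 0.0349, adjusted p = 0.88 by limma) for Zic4 and 0.08 (SE 0.059, adjusted p = 0.94) for Homer2. It was 0.001 for Zic1, 0.017 for Zic2, -0.02 for Zic5 and -0.008 for Lhx2. The maternal and virgin arrays did not overlap on the striatal mean, so this fit cannot tell the part of striatal tissue from that of the group. The part of striatal tissue in these differences was not tested.

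**Figure D3:**
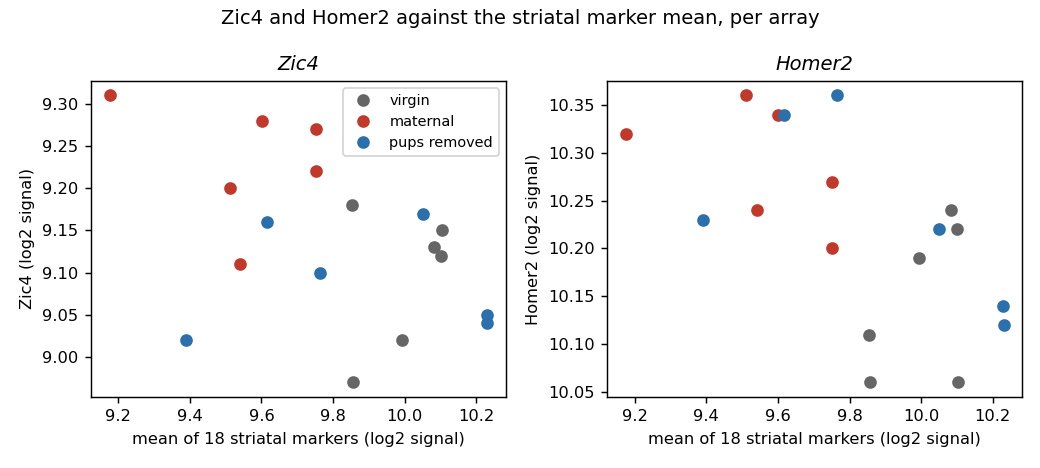
Log2 signal of Zic4 (left) and Homer2 (right) on each array against the mean of 18 striatal markers on the same array, with points coloured by group. The maternal arrays, at 9.176 to 9.752 on the horizontal axis, lie to the left of all virgin arrays, at 9.853 to 10.103, while the pups removed arrays span both ranges.

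Markers of other cells were measured beside them. Choroid plexus markers had the widest range, from 7.772 to 10.189 over the 18 arrays, with 8 of 8 below 0 in maternal against virgin mice and a median of -0.556. Ependymal markers had 7 of 7 below 0 with a median of -0.31, and neither list had a call. Of 11 measured stem cell and neuroblast markers 9 were below 0 and 4 were called lower (Fabp7, Egfr, Nr2e1 and Nes), under 25, 25, 25 and 23 of 27 alternatives. The microglial genes P2ry12 and Aif1 were called lower, under 25 and 21 of them, and the endothelial gene Flt1 higher, under 19. Neither list moved as a whole. Microglial markers had 4 above 0 and 4 below, with a median of -0.008. Endothelial markers had 3 above 0 and 3 below, with a median of 0. Medial septal, glutamatergic, meningeal, astrocyte and oligodendrocyte markers had none called, with medians of 0.04, 0.021, 0.029, -0.054 and 0. The part of these cells in the differences of Zic4 and Homer2 was not tested.

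From mouse to mouse, correlations passed among Zic1, Zic2 and the brighter Zic5 probeset, between Zic4 and Zic2 and between Homer2 and Zic1. With the other Zic5 probeset in place of the brighter one, only the pair of Zic1 and Zic2 passed. A pair that did not pass is not thereby shown to be unrelated. For each pair, the group means were removed from the log2 values and a correlation was computed over the 18 arrays, with a two-sided p from 100000 permutations of arrays within groups and Benjamini-Hochberg adjustment over the 15 pairs. All 15 values of Pearson's r were above 0, with a median of 0.499, and 5 pairs had an adjusted p under 0.05. Each pair uses the same 18 RNA samples. RNA was prepared in matched sets of 1 mouse from each group, per the study's methods, and the labels do not say whether a replicate number marks such a set. When the means of the replicate numbers were removed as well, 1 of the 5 pairs passed, Zic1 and Zic2, with an r of 0.662 (permutation p = 0.00324, adjusted p = 0.0486). Those permutations moved arrays within groups and did not remove the replicate means again. The p-values with the replicate means removed are therefore too small, and this pass cannot be relied on.

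Zic1 and Zic2 had the highest r. It was 0.757 (permutation p = 0.0012, adjusted p = 0.0172), Spearman's rho was 0.734 (permutation p = 0.00212), and r was 0.748 without the 2 arrays farthest from the Zic1 median. Over the 6 arrays of a group r was 0.741 in the virgin group, 0.437 in the maternal group and 0.939 in the pups removed group. Among 15562 probesets that name 1 gene and have a mean of at least 7, Zic2 ranked 23rd by its r with Zic1, in the top 0.148%, although the genes lie on different chromosomes.

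On its brighter probeset, whose assignment to the gene is in doubt, Zic5 followed both. Its r was 0.68 with Zic1 (rho 0.721, permutation p = 0.00229, adjusted p = 0.0172) and 0.668 with Zic2 (rho 0.697, permutation p = 0.00422, adjusted p = 0.0211). Without the 2 farthest arrays these were 0.788 and 0.632. With Zic1 the r within the virgin, maternal and pups removed groups was 0.897, 0.341 and 0.857, and with Zic2 it was 0.581, 0.971 and 0.647. With the other Zic5 probeset, an alternative chosen after seeing the data, r was 0.6 with Zic1 (permutation p = 0.0153, adjusted p = 0.0579) and 0.449 with Zic2 (permutation p = 0.0927, adjusted p = 0.174), and only the pair of Zic1 and Zic2 passed among the 15. With the replicate means removed, the r of the brighter probeset was 0.277 with Zic1 (permutation p = 0.277, adjusted p = 0.378) and 0.416 with Zic2 (permutation p = 0.101, adjusted p = 0.217). Its call with Zic2 was also lost after quantile normalization (adjusted p = 0.0545 by permutation). The same call was lost without virgin replicate 6 (adjusted p = 0.131), maternal replicate 2 (adjusted p = 0.0726) or pups removed replicate 1 (adjusted p = 0.0766).

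Zic4 followed Zic2 more than its neighbour Zic1, though the difference between these correlations was not tested. Its r with Zic2 was 0.589 (rho 0.522, permutation p = 0.014, adjusted p = 0.0463) and fell to 0.445 without the 2 farthest arrays. This call was lost on leaving out 13 of the 18 arrays in turn, with adjusted p-values from 0.0154 to 0.172 by permutation over all 18, and passed only without virgin replicate 2 or 3, maternal replicate 1 or 6, or pups removed replicate 2. It was also lost after quantile normalization (adjusted p = 0.0545), with the replicate means removed (adjusted p = 0.169) and with the striatal mean removed (adjusted p = 0.0502). With Zic1 it was 0.419 (permutation p = 0.0922, adjusted p = 0.154) and with Zic5 0.508 (adjusted p = 0.109 by permutation). Zic4 ranked 1199th among the 15562 probesets by r with Zic1 and 310th by r with Zic2.

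On its brighter probeset Homer2 passed with Zic1 alone, with an r of 0.613 (rho 0.635, permutation p = 0.0154, adjusted p = 0.0463) and 0.664 without the 2 farthest arrays. Within groups this r was 0.677 in virgin and 0.923 in pups removed mice but -0.029 in maternal mice, so it rests on the virgin and pups removed arrays. The call was lost on leaving out 13 of the 18 arrays in turn, with adjusted p-values from 0.0196 to 0.131 by permutation over all 18, and passed only without virgin replicate 4 or maternal replicate 1, 3, 5 or 6. It was also lost after quantile normalization (adjusted p = 0.0618), with the replicate means removed (adjusted p = 0.169) and with the striatal mean removed (adjusted p = 0.0784). The second Homer2 probeset had an r of 0.511 with Zic1 (permutation p = 0.0738, adjusted p = 0.138), which did not pass. With Zic2 its r was 0.728 (permutation p = 0.00379, adjusted p = 0.0158), which did. The r of the brighter probeset with Zic5 was 0.561, with Zic2 0.499 and with Zic4 0.344, and none of these passed. Values of r over 0.5 in size were common for some of the genes: 14.3% of the probesets for Zic5 and 13.5% for Homer2, against 9.01% for Zic1, 8.4% for Zic2, 4.07% for Zic4 and 4.45% for Lhx2.

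Lhx2 passed with none of the other genes over the 18 arrays. Its r was 0.159 with Zic1, 0.189 with Zic2, 0.121 with Zic4, 0.217 with Zic5 and 0.066 with Homer2. Lhx2 ranked 5035th by its r with Zic1. On pups removed replicate 5 Lhx2 deviated by 0.152 from its group mean, while Zic1 deviated by -0.115 and Zic2 by -0.137. Without that array the r of Lhx2 was 0.615 with Zic2 (permutation p = 0.0187, adjusted p = 0.0697) and 0.442 with Zic1 (permutation p = 0.126, adjusted p = 0.205). Leaving out maternal replicate 2 instead, where Lhx2 deviated by -0.133, lowered it. The r of Lhx2 was then 0.041 with Zic2, 0.114 with Zic1, -0.102 with Zic4 and 0.087 with Zic5. Over the 6 maternal arrays alone it was 0.889 with Zic2, 0.88 with Zic4 and 0.772 with Zic5, against -0.122, -0.036 and 0.004 over the 6 pups removed arrays.

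**Figure D4:**
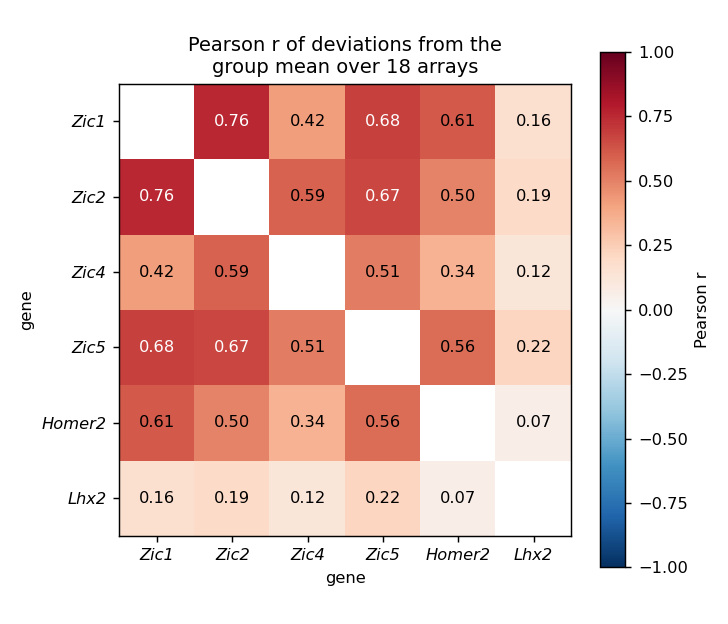
Pearson r of each pair of the 6 genes over 18 arrays after the group means were removed, with the colour scale running from -1 to 1. All 15 values are above 0; the highest is 0.76 for Zic1 and Zic2, and the row of Lhx2 holds values from 0.07 to 0.22.

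Some arrays were low or high in most of the genes. All 6 genes were below their group means on virgin replicate 6 and on maternal replicate 2, and 5 of 6 on pups removed replicates 4, 5 and 6. None was below on maternal replicate 4 and on pups removed replicates 1 and 3. The deviations on virgin replicate 6 were -0.09 for Zic1, -0.11 for Zic2, -0.125 for Zic4 and -0.36 for Zic5, and on pups removed replicate 1 they were 0.155, 0.113, 0.07 and 0.245. Without virgin replicate 6 no pair passed, and the r of Zic1 and Zic2 was 0.726 (permutation p = 0.00598, adjusted p = 0.0873). Without pups removed replicate 1 no pair passed either, and that r was 0.684 (permutation p = 0.00475, adjusted p = 0.0712). Over all 18 arrays left out in turn the r of Zic1 and Zic2 stayed between 0.684 and 0.817.

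**Figure D5:**
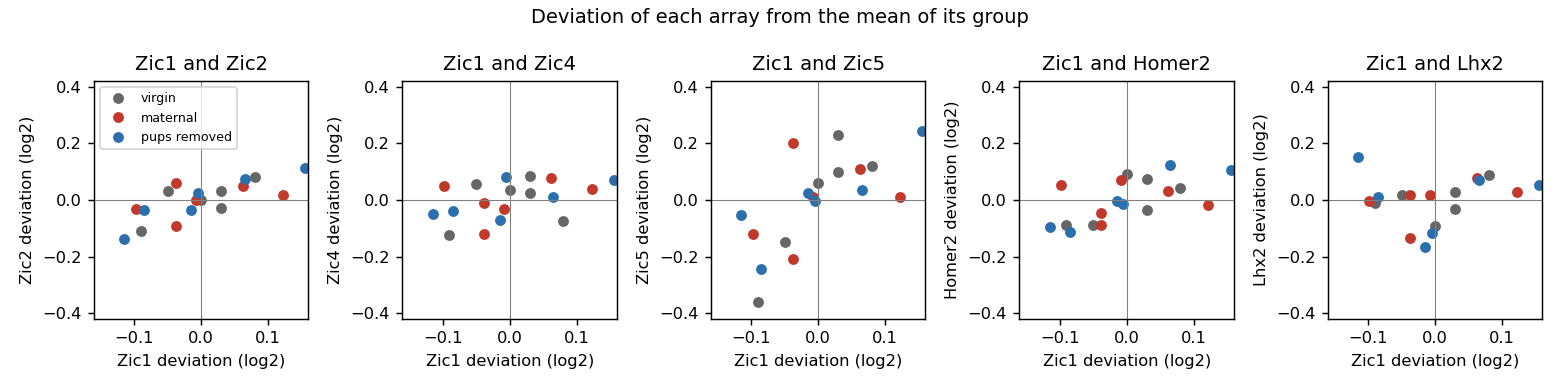
Deviation of each array from the mean of its group (log2) for Zic1 on the horizontal axis and Zic2, Zic4, Zic5, Homer2 and Lhx2 on the vertical axes, with points coloured by group. The points of Zic2 and of the brighter Zic5 probeset rise with Zic1, with r of 0.757 and 0.68, and those of Lhx2 scatter, with r of 0.159.

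No marker list followed these genes past the threshold. Of 72 correlations of the 6 genes with the means of 12 marker lists, 0 had an adjusted p under 0.05. The smallest p-values were those of Zic4 with medial septal markers (r = -0.652, rho = -0.646, permutation p = 0.00286, adjusted p = 0.206) and Zic5 with astrocyte markers (r = 0.654, permutation p = 0.00879, adjusted p = 0.316). With striatal markers r was -0.392 for Zic1, -0.265 for Zic2, -0.019 for Zic4, -0.219 for Zic5, -0.417 for Homer2 and 0.251 for Lhx2. The choroid plexus mean was low on both arrays where all 6 genes were low, at 7.902 on virgin replicate 6 and 7.961 on maternal replicate 2. It was also low, at 7.814, on pups removed replicate 3, where none of the genes was below its group mean. The lowest choroid plexus mean, 7.772, was on pups removed replicate 4, where 5 of the 6 genes were below. On maternal replicate 5 it was 7.992, with 3 genes below. With the striatal mean removed as well, the r of Zic1 and Zic2 was 0.736 (permutation p = 0.00132, adjusted p = 0.0198), and 3 pairs passed. These permutations did not remove the striatal mean again, so the p-values are too small and these passes cannot be relied on.

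The genes most like each member by r over the 18 arrays are given as a description, with no test. For Zic1 they were Prkcd (0.886), which encodes protein kinase C delta, followed by Pla2g12a (0.844), Mtch1 (0.842), Ankrd29 (0.825) and Ptchd1 (0.814). The r of Prkcd with Zic1 was 0.811 over virgin, 0.839 over maternal and 0.974 over pups removed arrays, and its maternal against virgin difference was -0.007. For Zic2 they were Lzts1 (0.858), Inafm2 (0.854) and Ptpn3 (0.849). Zic4 was most like the integrin gene Itga1 (0.808), Rcor1 (0.801), a corepressor subunit, and Dgkh (0.751), a diacylglycerol kinase. For Zic5 the circadian transcription factor gene Clock came first (0.884), then Efcab14 (0.872) and Phactr2 (0.862). Homer2 was most like the kinesin gene Kif21a (0.893), the splicing factor gene Srsf3 (0.886) and Zc3h15 (0.877). Lhx2 was most like Gldc (0.829), which encodes part of the glycine cleavage system, Appbp2os (0.805) and Rhoc (0.747). No gene appeared in more than 1 of these groups of most alike genes.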

How the data were processed

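LS RNA of 18 mice was hybridised to 18 arrays, 6 a group. The authors deposited log2 signal per probeset, made with Affymetrix Power Tools 1.12.0 and PLIER per the submitters' processing notes, and the values were used unchanged; the genome build is not given in the sources used here. The table holds 35557 probesets: by the platform annotation 21789 name 1 gene, 1621 several and 12147 none. Values ran from 2.33 to 14.72 and array medians from 7.61 to 7.7. Arrays have no read depth, so their number limits the precision.

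All 18 arrays entered 1 linear model with 3 groups (limma 3.58.1, R 4.3.3, empirical Bayes), with p-values adjusted by Benjamini-Hochberg across the whole table. Genes with an adjusted p below 0.25 were called, and intervals are at 95%. Correlations used Python 3.11.15 with numpy 2.4.6. The fit and the correlations were tested on simulated data. The genes and gene lists were chosen with earlier results of these data known. Named were the genes of the set, from each list any gene called (at most 6 by p) and the 2 with the smallest p in maternal against virgin mice where the list is described, and the 5 genes most like Zic1 and 3 most like each other gene. Replicates are separate mice. With 6 of 7 genes measured, 15 pairs were tested. Alternatives covered normalization, filters, variance models, covariates, other probesets, the replicate number as a block and leaving out each array.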

Additional observations from a re-analysis of the deposited data

How the results depend on the processing

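For the 6 genes, 0 were called in maternal against virgin mice, and 1 was called after quantile normalization (Homer2), with a filter on a mean of at least 6 (Zic4) and with a variance trend (Zic4). Leaving out each array in turn gave 0 to 1, with 1 without virgin replicate 1 (Zic4) and without maternal replicate 1 (Homer2). In the other comparisons 0 were called under every alternative run. Over all probesets, maternal against virgin calls went from 585 to 356 with the replicate block, 924 with the filter and 0 with the striatal mean as covariate, and from 10 to 1639 without single arrays. Maternal against pups removed calls went from 11 to 42 with quantile normalization, 7 with median centring, 96 with the filter, 70 with the trend, 783 with array weights, 309 over probesets naming 1 gene and 5 with the striatal covariate, and from 5 to 719 without single arrays. Pups removed against virgin calls went from 74 to 42 with array weights, 33 with only those groups fitted and 7 over probesets naming 1 gene, and from 18 to 266 without single arrays.

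Of the 15 pairs, 5 passed, against 9 with group means kept, 2 after quantile normalization, 8 after median centring, 3 with the striatal mean removed, 1 with the other Zic5 probeset and 5 with the other Homer2 probeset (these 2 chosen after seeing the data). Leaving out each array gave 0 to 6. With the replicate block 1 pair passed (Zic1 and Zic2, r = 0.662), by permutation p-values that are too small because the replicate means were not removed again. Permutation p-values with the striatal mean removed are too small for the same reason. RNA was prepared in matched sets of 1 mouse from each group, but whether the replicate numbers mark those sets is not given in the sources used here. Over all probesets, 0 of 18 same-numbered pairs of arrays had deviations correlated over 0.1 (range -0.248 to 0.095), while single genes such as Zic1 on replicate 6 (-0.09, -0.098 and -0.085) deviated alike. The block changed no call of the 6 genes. The cause of these changes was not tested. The maternal differences of Zic1, Zic2, Zic4 and Homer2 kept their sign under all alternatives run. The maternal against virgin sign of Zic5 turned under 2 alternatives and the maternal against pups removed sign of Lhx2 under 3, each time with no call.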
